A study of Homo sapiens with 8 samples.

Results

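To determine how luteolin and gefitinib affect the let-7 family in prostate cancer cells, the 9 guide arms of the family, the strands of the hairpins that act on target mRNAs, were taken by name from a human miRNA array. They were hsa-let-7a-5p, hsa-let-7b-5p, hsa-let-7c, hsa-let-7d-5p, hsa-let-7e-5p, hsa-let-7f-5p, hsa-let-7g-5p, hsa-let-7i-5p and hsa-miR-98 (listed on the array as hsa-miR-98-5p), and they made up 9 of the 1887 human miRNAs measured. The cells were PC-3, an established line of hormone-insensitive human prostate cancer cells. They received the solvent DMSO, 60 µM luteolin (a plant flavonoid), 60 µM gefitinib (which blocks the kinase activity of the epidermal growth factor receptor) or luteolin plus gefitinib at 60 µM each, and RNA was taken after 24 h. Both drugs were dissolved in DMSO, so all 4 groups received the solvent, and the study used this 1 cell line. Each group had 2 arrays, numbered replicates 1 and 2, which the labels call biological replicates. No source used here says that they came from separate cultures, and p-values below measure only the spread between these arrays.

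The let-7 family is among the most conserved miRNA families in animals. A mature let-7 guide arm pairs with target mRNAs mainly through its seed, bases 2 to 8 from the 5′ end, and lowers their stability and translation. Known targets include the RAS genes, HMGA2 and MYC, which is why let-7 is described as a tumour suppressor family. The protein LIN28 binds let-7 precursors and blocks their maturation, and let-7 levels are generally high in differentiated cells and low in stem cells.

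The mature sequences from RefSeq (GRCh38.p14) are shown because the members share one seed and differ by so few bases elsewhere that array probes must tell near-identical RNAs apart. Capitals mark the seed:
hsa-let-7a-5p: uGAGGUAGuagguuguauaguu
hsa-let-7b-5p: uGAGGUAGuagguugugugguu
hsa-let-7c: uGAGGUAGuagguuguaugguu
hsa-let-7d-5p: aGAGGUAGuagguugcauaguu
hsa-let-7e-5p: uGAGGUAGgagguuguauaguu
hsa-let-7f-5p: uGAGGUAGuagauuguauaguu
hsa-let-7g-5p: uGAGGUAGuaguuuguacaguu
hsa-let-7i-5p: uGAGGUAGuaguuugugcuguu
hsa-miR-98-5p: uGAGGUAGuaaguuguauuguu

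All 9 members were found in RefSeq, all were 22 bases long, and all carried the seed GAGGUAG. With positions counted from 1 at the 5′ end and the base of hsa-let-7a-5p written first, hsa-let-7c differed from hsa-let-7a-5p by A19G, hsa-let-7e-5p by U9G and hsa-let-7f-5p by G12A. The other members differed from it at 2 to 4 positions, with the highest number in hsa-let-7i-5p (G12U, A17G, U18C and A19U). Over the 36 pairs of members the number of differing bases ran from 1 to 6. In hsa-let-7d-5p 1 of the 2 differences was at the first base (U1A). The cross-reaction of probes between members was not tested, so a level given for a single member is uncertain to the extent that its probes also bind its relatives. The seed was also found in 2 other human miRNAs of RefSeq. Of these, hsa-miR-4458 was detected on 5 arrays at a scaled signal of at most 2.69, and hsa-miR-4500 was detected on 0 arrays:
hsa-miR-4458: aGAGGUAGguguggaagaa
hsa-miR-4500: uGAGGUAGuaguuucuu

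The 9 mature sequences came from 12 loci. The array measures the mature RNA, so it cannot tell apart the 3 loci of hsa-let-7a-5p or the 2 loci of hsa-let-7f-5p. In GRCh38.p14 the guide arms of MIRLET7A1 (chr9:94175962-94175983), MIRLET7F1 (chr9:94176353-94176374) and MIRLET7D (chr9:94178841-94178862) lay on the + strand within the long noncoding RNA gene MIRLET7A1HG. Those of MIRLET7A3 (chr22:46112752-46112773) and MIRLET7B (chr22:46113691-46113712) lay on the + strand within MIRLET7BHG. MIRLET7F2 (chrX:53557246-53557267) and MIR98 (chrX:53556299-53556320) lay on the - strand within the bounds of HUWE1, which encodes a ubiquitin ligase. The remaining loci were MIRLET7A2 on chromosome 11 within MIR100HG, MIRLET7C on chromosome 21 within MIR99AHG, MIRLET7E on chromosome 19 within the bounds of SPACA6, MIRLET7G on chromosome 3 within the bounds of WDR82, and MIRLET7I on chromosome 12 within MIRLET7IHG.

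The scanner software detected 395 to 481 miRNAs per array, 365 of them on all 8 arrays, and the 480 miRNAs found on each array of some treatment were tested. Signals are the total signal of a miRNA over its spots, scaled so that the 75th percentile of the 365 miRNAs was the same on every array. They are in arbitrary units, which are called scaled signal here. Of the 6 epithelial miRNAs looked for, hsa-miR-200a-3p, hsa-miR-200b-3p and hsa-miR-429 were detected on 8 arrays, hsa-miR-205-5p on 6, and hsa-miR-200c-3p and hsa-miR-141-3p on 0. Of the 5 blood cell miRNAs, 4 were detected on 0 arrays and hsa-miR-142-3p on 1, at a scaled signal of 1.67. The 4 muscle, 2 stromal and 1 liver miRNAs were detected on 0 arrays. Of 2 neuronal miRNAs, hsa-miR-124-3p was detected on 0 arrays and hsa-miR-9-5p on 8, at 7.58 to 14.9.

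All 9 let-7 guide arms were detected on all 8 arrays, each from 30 spots of 2 probes, and 100% of these spots were well above background. The software's own error was 7.09% to 8.03% of the signal. The members hsa-let-7a-5p, hsa-let-7f-5p and hsa-let-7b-5p gave the highest signals. The scaled signal of hsa-let-7a-5p was 2296 and 3660 in DMSO, 2393 and 4139 in luteolin, 3062 and 2926 in gefitinib, and 2946 and 3493 in luteolin plus gefitinib (replicates 1 and 2 in each case, here and below). That of hsa-let-7f-5p was 1459 and 2319 in DMSO, 1473 and 2633 in luteolin, 1974 and 1826 in gefitinib, and 1824 and 2145 in luteolin plus gefitinib. That of hsa-let-7b-5p was 814 and 1091 in DMSO, 993 and 1317 in luteolin, 947 and 1016 in gefitinib, and 1050 and 1225 in luteolin plus gefitinib. In all 3 members the lowest value was replicate 1 of DMSO and the highest was replicate 2 of luteolin, and both gefitinib arrays lay between the DMSO arrays.

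Another 3 members gave intermediate signals. The scaled signal of hsa-let-7g-5p was 379 and 594 in DMSO, 379 and 656 in luteolin, 515 and 515 in gefitinib, and 466 and 526 in luteolin plus gefitinib. That of hsa-let-7c was 388 and 516 in DMSO, 454 and 622 in luteolin, 440 and 446 in gefitinib, and 493 and 578 in luteolin plus gefitinib. That of hsa-let-7i-5p was 377 and 521 in DMSO, 380 and 529 in luteolin, 480 and 470 in gefitinib, and 441 and 454 in luteolin plus gefitinib. The arrays of each drug group overlapped those of DMSO in all 3. The remaining members were dimmer. That of hsa-let-7d-5p was 250.2 and 366 in DMSO, 233 and 380 in luteolin, 315 and 285 in gefitinib, and 281 and 315 in luteolin plus gefitinib. That of hsa-let-7e-5p was 185 and 234 in DMSO, 177 and 282 in luteolin, 225 and 208 in gefitinib, and 223 and 297 in luteolin plus gefitinib. That of hsa-miR-98-5p, the dimmest member, was 41.3 and 61.4 in DMSO, 43.0 and 67.8 in luteolin, 53.7 and 46.4 in gefitinib, and 51.5 and 54.1 in luteolin plus gefitinib. The highest value of a member over the 8 arrays was between 1.40 times (hsa-let-7i-5p) and 1.81 times (hsa-let-7f-5p) its lowest.

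**Figure D1:**
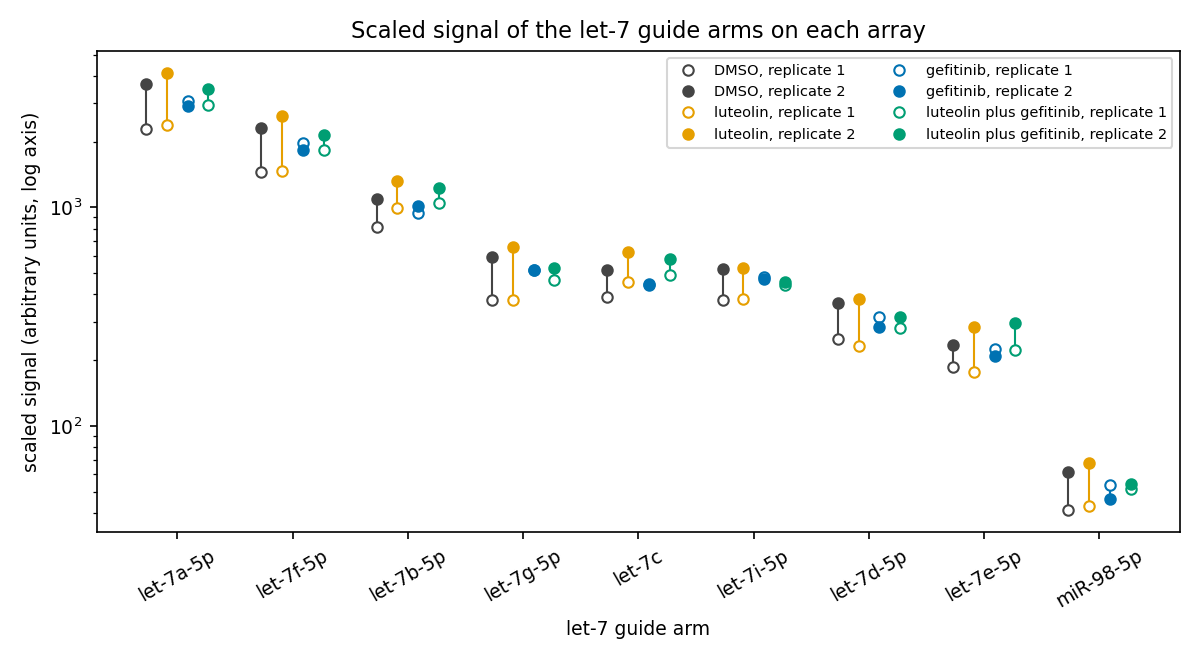
Scaled signal of each let-7 guide arm (log axis, arbitrary units) on the 8 arrays, with open circles for replicate 1, filled circles for replicate 2 and a line joining the replicates of a treatment. The signal of hsa-let-7a-5p lay between 2296 and 4139, and the replicates of DMSO and of luteolin stood further apart than those of gefitinib.

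Replicates of the same treatment lay far apart in DMSO and in luteolin. In DMSO-treated cells all 9 members were higher on replicate 2, by ratios of 1.27 to 1.59. In luteolin-treated cells all 9 were again higher on replicate 2, by 1.33 to 1.79. The median ratio of the 365 miRNAs detected on all arrays was 1.08 in DMSO and 0.977 in luteolin, so every let-7 ratio lay above that median in both treatments. With gefitinib the ratio of replicate 2 to replicate 1 was 0.864 to 1.07, with 3 members higher on replicate 2, against a median of 1.035 for the 365 miRNAs. With luteolin plus gefitinib it was 1.03 to 1.33, with 9 members higher, against a median of 1.069, so the members lay on both sides of the median in these groups. The replicate number also gave the row of the slide on which the array lay, so row and replicate cannot be told apart.

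**Figure D2:**
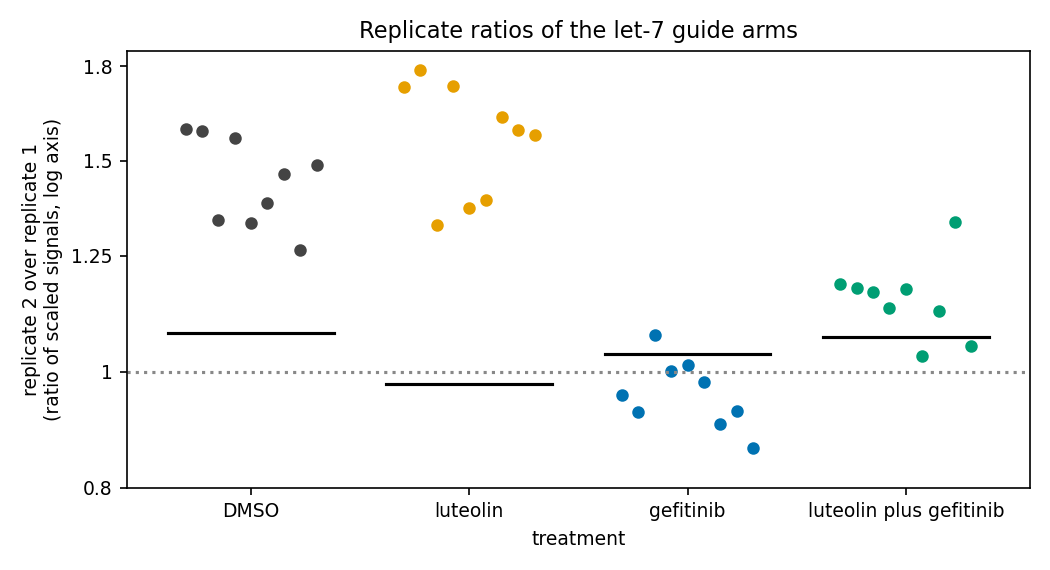
Ratio of the scaled signal on replicate 2 to that on replicate 1 (log axis) for the 9 members in each treatment (points, from the highest to the lowest median signal within a treatment), with the median ratio of 365 miRNAs as a black bar. The points lay at 1.27 to 1.59 in DMSO and 1.33 to 1.79 in luteolin, above the bars at 1.08 and 0.977.

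The members moved together across arrays. Over the 36 pairs of members, Pearson's r of the log2 scaled signals over the 8 arrays had a median of 0.879. It was highest for hsa-let-7a-5p and hsa-let-7f-5p (r = 0.996, n = 8), which differ by 1 base and share the MIRLET7A1HG locus. It was 0.985 for hsa-let-7b-5p and hsa-let-7c, which also differ by 1 base but lie on chromosomes 22 and 21. The lowest value was 0.658, for hsa-let-7c and hsa-let-7i-5p, which differ by 4 bases. These values describe 8 arrays that share 1 slide, and probes of similar sequence enter each pair.

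Accordingly, the makeup of the let-7 signal varied less than its total. The unscaled signals of the 9 members summed to 2.60% to 4.18% of the signal of all detected miRNAs on an array. This percentage was 2.60% and 3.55% in DMSO, 2.86% and 4.15% in luteolin, 4.18% and 4.03% in gefitinib, and 3.83% and 3.69% in luteolin plus gefitinib. Both gefitinib arrays and both arrays of luteolin plus gefitinib lay above both DMSO arrays by this measure, although the summed scaled signal did not separate them (7776 ± 2245 in DMSO, 7876 ± 192 in gefitinib and 8432 ± 928 in luteolin plus gefitinib, mean ± SD, n = 2). The percentage depends on all other miRNAs in its denominator and was not tested. Within the family, hsa-let-7a-5p took 36.7% to 39.1% of the let-7 signal and hsa-let-7f-5p 22.6% to 24.8%, and the pair together took 59.3% to 63.9%. The share of hsa-let-7b-5p was 11.7% to 15.2%.

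The shares of hsa-let-7g-5p (5.79% to 6.66%), hsa-let-7c (5.49% to 6.96%) and hsa-let-7i-5p (4.98% to 6.09%) overlapped, so no order among them was read. The share of hsa-let-7d-5p was 3.47% to 4.04%, that of hsa-let-7e-5p was 2.50% to 3.27%, and hsa-miR-98-5p took 0.595% to 0.670%. These are shares of signal and not of molecules, since probes differ in brightness. On the array of replicate 1 of DMSO the brighter probe of a member gave between 1.11 times (hsa-let-7i-5p) and 3.098 times (hsa-let-7d-5p) the signal of its other probe. Taken from the first or the second probe alone, the share of hsa-let-7d-5p was 1.67% to 1.90% or 5.48% to 6.36%. That of hsa-let-7e-5p was 2.13% to 2.73% or 2.92% to 3.88%, so the order of these 2 members turned with the probe. That of hsa-let-7f-5p was 29.3% to 32.3% or 15.1% to 17.0%. That of hsa-let-7c was 7.67% to 9.6% or 2.89% to 4.09%, so by the second probe it lay under that of hsa-let-7d-5p. That of hsa-miR-98-5p was 0.843% to 0.928% or 0.317% to 0.397%. The share of hsa-let-7a-5p was 30.6% to 33.5% by the first probe and 43.3% to 46.0% by the second, and with the first probe it overlapped the share of hsa-let-7f-5p.

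The share of 1 member, hsa-let-7d-5p, did not overlap between the 4 arrays with luteolin (3.47% to 3.61%, luteolin alone or with gefitinib) and the 4 arrays without it (3.68% to 4.04%). This member was singled out after its values were seen, the difference is small, and it was not tested. The scaled signal of hsa-let-7d-5p itself overlapped between these arrays.

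**Figure D3:**
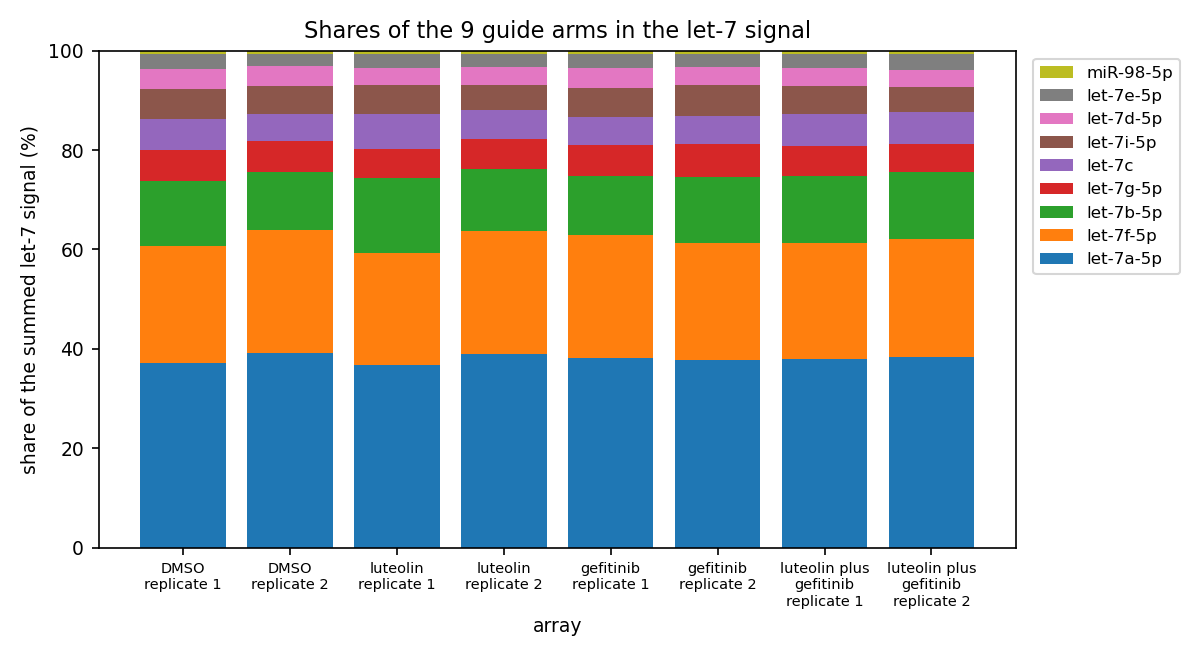
Stacked bars giving the share (%) of each guide arm in the summed unscaled let-7 signal of each array, with hsa-let-7a-5p at the bottom and hsa-miR-98-5p at the top. The lower 2 segments, hsa-let-7a-5p and hsa-let-7f-5p, together took 59.3% to 63.9% on every array.

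To determine if either drug changed the let-7 guide arms, each drug group was compared with DMSO in a limma fit over all 480 miRNAs, with Benjamini-Hochberg adjusted p-values. With luteolin 0 of 9 members were called changed at an adjusted p under 0.05, where 2.08% of the tested miRNAs were called. Their log2 fold changes ran from -0.03 (hsa-let-7d-5p) to 0.28 (hsa-let-7b-5p), with a median of 0.10 against -0.09 for the 365 miRNAs. With gefitinib 0 of 9 members were called, where 12.1% of the tested miRNAs were. Their log2 fold changes ran from -0.02 (hsa-let-7d-5p) to 0.12 (hsa-let-7g-5p), with a median of 0.05 against -0.11. With luteolin plus gefitinib 0 of 9 members were called, again where 12.1% of the tested miRNAs were. Their log2 fold changes ran from -0.03 (hsa-let-7d-5p) to 0.30 (hsa-let-7e-5p), with a median of 0.11 against -0.13. At these shares of called miRNAs a count of 0 of 9 is not a result about the members. The direction of the members' medians turned when single arrays were left out. Without replicate 1 of DMSO the members' medians were -0.22 in all 3 comparisons, and without replicate 2 of luteolin the luteolin median was -0.23. Either omission leaves the replicate numbers unequal between luteolin and DMSO. Within replicate numbers the luteolin median was 0.01 in replicate 1 and 0.18 in replicate 2. Since the RNA came from whole cultures, a lower level in every cell and fewer cells with the RNA cannot be told apart in any comparison. At an unadjusted p under 0.05, 0 of 9 members passed in each of these comparisons as well, where 41, 114 and 124 of the 480 miRNAs did with luteolin, gefitinib and both drugs. The methods' t-test on the same values, unadjusted, called 0 of 9 members and 26, 118 and 86 of the 480 miRNAs, and after Benjamini-Hochberg adjustment 0 of 9 members and 0, 38 and 13 of the 480.

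The members did not separate by treatment on the level of single arrays either. Both luteolin arrays lay on one side of both DMSO arrays for 26.9% of the tested miRNAs, and for 0 of 9 members. For gefitinib this held for 57.5% of the tested miRNAs and for 0 of 9 members. For luteolin plus gefitinib it held for 52.9% and again for 0 of 9 members. The DMSO arrays of the members were 1.27-fold to 1.59-fold apart, and a member counted here only where both drug arrays lay on the same side of that gap.

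The fit does not show that the let-7 levels were the same. The widest 95% intervals of the 9 members reached from 1.70-fold lower to 1.95-fold higher with luteolin. They reached from 1.76-fold lower to 1.92-fold higher with gefitinib, and from 1.70-fold lower to 2.01-fold higher with both drugs. For hsa-let-7b-5p, the member with the lowest standard error, the log2 fold change was 0.28 ± 0.22 (SE) with luteolin (adjusted p = 0.887, limma), 0.06 ± 0.22 with gefitinib (adjusted p = 0.902) and 0.27 ± 0.22 with both drugs (adjusted p = 0.516). For hsa-let-7a-5p it was 0.12 ± 0.34 with luteolin (adjusted p = 1), 0.05 ± 0.34 with gefitinib (adjusted p = 0.953) and 0.15 ± 0.34 with both (adjusted p = 0.841). The difference of hsa-let-7e-5p with both drugs was 0.30 ± 0.28 (adjusted p = 0.555, limma).

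**Figure D4:**
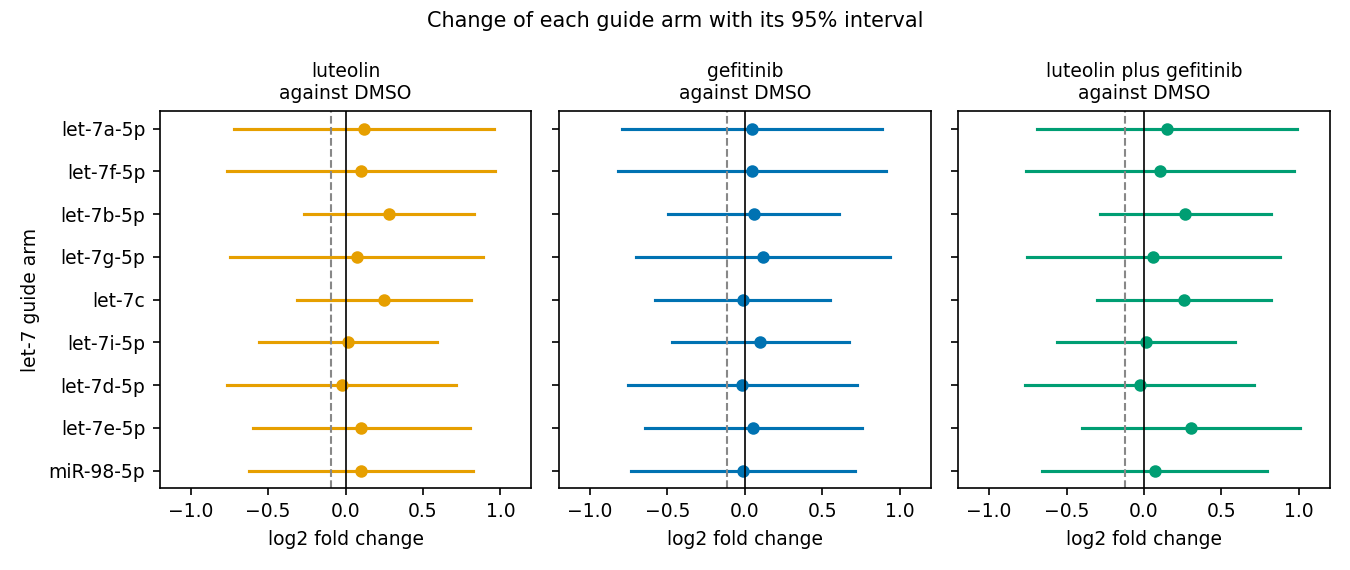
Log2 fold change of each guide arm against DMSO (points) with its 95% interval from limma (lines), for luteolin, gefitinib and luteolin plus gefitinib. The dashed grey line is the median of 365 miRNAs (-0.09, -0.11 and -0.13), and all intervals of the members included 0.

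Within replicate numbers, which share a row of the slide, 1 array was set against 1 array, so no p-value is given for a single replicate number. A fit with a replicate block is given among the alternatives below. The median log2 difference of the 9 members between luteolin and DMSO was 0.01 in replicate 1, with 6 members higher, and 0.18 in replicate 2, with 9 members higher. Between gefitinib and DMSO it was 0.35 in replicate 1, with 9 members higher, and -0.21 in replicate 2, with 0 members higher. Between luteolin plus gefitinib and DMSO it was 0.32 in replicate 1, with 9 members higher, and -0.11 in replicate 2, with 3 members higher. The direction of the median thus turned between the replicates in both groups that held gefitinib. The choice of scaling moved the gefitinib comparison too. With no scaling the members' median was 0.41 against 0.25 for the 365 miRNAs, and with spike-in probes it was 0.55 against 0.39, and 0 of 9 members were called under both.

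To determine if the drugs differed from each other, 4 further contrasts were taken from the same fit. Between luteolin plus gefitinib and luteolin 0 of 9 members were called, where 1.88% of the tested miRNAs were, and the members' median log2 difference was -1e-04. Between luteolin plus gefitinib and gefitinib 0 of 9 were called, where 4.58% of the tested miRNAs were, with a median of 0.08. Between gefitinib and luteolin 0 of 9 were called, where 5% of the tested miRNAs were, with a median of -0.05. In the interaction, which sets the effect of both drugs against the sum of the single effects on the log2 scale, 0 of 9 were called, where 3.33% of the tested miRNAs were, with a median of -0.02. At these shares, too, a count of 0 of 9 is not a result about the members. The lowest adjusted p of a member in these contrasts was 0.724 (limma), for hsa-let-7c between gefitinib and luteolin (log2 difference -0.26 ± 0.23, SE).

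Each member was read by a pair of probes. Over the 27 comparisons of a member with DMSO, the log2 fold changes of its probes differed by 0.002 to 0.178, with a median of 0.043. The widest difference was in hsa-let-7f-5p with both drugs (0.18 by one probe and 0.002 by the other), and the next was in hsa-let-7c with gefitinib (0.04 and -0.14). The probes had opposite signs in 6 of the 27, which were hsa-let-7d-5p in all 3 comparisons, hsa-let-7c and hsa-miR-98-5p with gefitinib, and hsa-miR-98-5p with both drugs. The coefficient of variation of the spots of a probe had a median of 5.76%. For comparison, replicate ratios of the members were 1.27 to 1.79 in the DMSO and luteolin groups.

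Each let-7 hairpin also yields a passenger arm, which pairs with the guide in the duplex cut out by Dicer and is mostly degraded. The hairpins MIRLET7A1 (chr9:94175957-94176036, + strand) and MIRLET7E (chr19:51692786-51692864, + strand) are shown from RefSeq (GRCh38.p14) because they hold the 2 passenger arms with the highest signals. Capitals mark the guide arm on the left and the passenger arm on the right:
MIRLET7A1: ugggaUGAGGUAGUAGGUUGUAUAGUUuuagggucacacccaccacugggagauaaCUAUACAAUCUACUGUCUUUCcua
MIRLET7E: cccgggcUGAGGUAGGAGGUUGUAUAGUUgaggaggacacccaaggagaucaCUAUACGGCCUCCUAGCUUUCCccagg

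Of 11 passenger arms of the family, 8 were measured and 4 were detected on any array. The number detected on both arrays of a group was 4 in DMSO, 1 in luteolin, 2 in gefitinib and 0 in luteolin plus gefitinib. Over all miRNAs, 475 and 430 were detected in DMSO and 479 and 407 in luteolin. In gefitinib 481 and 468 were detected, and in luteolin plus gefitinib 447 and 395. Whether the counts of passenger arms followed these numbers was not tested. All 4 detected passenger arms were close to the limit of detection, with a scaled signal of at most 4.28 and at most 23.3% of their spots well above background. The lowest detected signal of an array lay between 0.512 and 0.830, with the highest value on replicate 2 of luteolin plus gefitinib. Of these 4, hsa-let-7a-3p, hsa-let-7e-3p and hsa-let-7f-2-3p were highest in DMSO, and hsa-let-7e-3p and hsa-let-7f-2-3p entered the test only through the DMSO arrays, so that any difference in these had to be a fall.

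The passenger arm hsa-let-7a-3p had a scaled signal of 4.26 and 4.28 in DMSO, 1.75 and 1.34 in luteolin, and 1.62 and 1.43 in gefitinib, and it was not detected on either array of luteolin plus gefitinib. It fell by 1.48 ± 0.17 (SE) on the log2 scale with luteolin (adjusted p = 0.0112, limma) and by 1.49 ± 0.17 with gefitinib (adjusted p = 0.00614). With both drugs it was at least 6.19-fold lower than in DMSO, at least 2.22-fold lower than with luteolin and at least 2.21-fold lower than with gefitinib. No p-value is given for these 3 comparisons, since the undetected arrays had no spread. A bound sets the mean of the brighter group against the lowest detected signals of the dimmer arrays, so it holds only if the undetected arm was at or under them. The guide arm hsa-let-7a-5p was called in none of the comparisons. Over the alternatives run, the log2 difference of hsa-let-7a-3p ranged from -1.70 to -0.09 with luteolin, from -1.65 to -0.11 with gefitinib and from -2.95 to -0.14 with both drugs, each against DMSO. The luteolin call was lost under 10 of 23 alternatives, among them no scaling, quantile normalization, spike-in scaling and normexp. Without replicate 1 or replicate 2 of DMSO the log2 difference of hsa-let-7a-3p with luteolin was -1.48 or -1.47. Without replicate 2 of gefitinib that with gefitinib was -1.40. The calls were lost in these fits, which leave 1 array in a group and take the spread from the others, so only the sizes are given.

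The passenger arm hsa-let-7e-3p had a scaled signal of 2.08 and 2.46 in DMSO and was not detected on any of the 6 drug arrays. Against the lowest detected signals of the drug arrays it was at least 3.27-fold lower in each drug group. No p-value is given for it, since it entered the fit only through the DMSO arrays and had no spread on the others. The passenger arm hsa-let-7i-3p had a scaled signal of 0.951 and 1.08 in DMSO and 1.34 and 1.45 in gefitinib, and it was not detected on the arrays of luteolin or of luteolin plus gefitinib. It entered the fit only through the DMSO and gefitinib arrays and had no spread on the others, so no p-value is given for it either. The arm hsa-let-7f-2-3p had 1.03 and 0.804 in DMSO and was not detected elsewhere. Where an arm was undetected its arrays were all set to the floor and so had no spread, which makes the standard errors of these arms too small, those of hsa-let-7a-3p with luteolin and with gefitinib included.

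**Figure D5:**
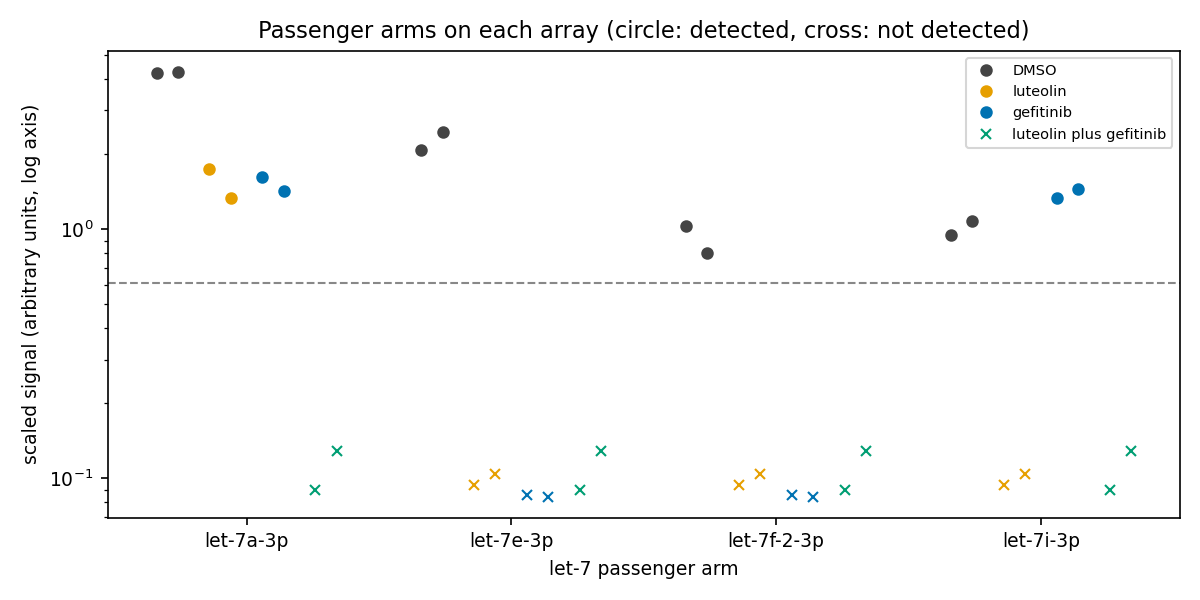
Scaled signal (log axis, arbitrary units) of the 4 passenger arms detected on any array, with circles for detected and crosses for undetected values, where a cross marks a placeholder of the software and has no order. The dashed line is the floor of 0.609 used in the test, and hsa-let-7a-3p was at 4.26 and 4.28 in DMSO and undetected with both drugs.

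Whether hsa-let-7a-3p moved apart from its guide arm was tested on the log2 ratio of their signals, entered in the fit beside the 480 miRNAs. This test was chosen after seeing the data. RefSeq holds hsa-let-7a-3p at 2 loci and hsa-let-7a-5p at 3, so the ratio does not compare the arms of the same hairpins alone. The ratio of hsa-let-7a-3p to hsa-let-7a-5p differed from DMSO by -1.60 ± 0.43 (SE) on the log2 scale with luteolin (adjusted p = 0.243, limma) and by -1.53 ± 0.43 with gefitinib (adjusted p = 0.0825), and neither difference passed. No ratio is given where a passenger arm was undetected in a group.

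Several let-7 hairpins share a primary transcript with other miRNAs. Of 7 such neighbours 6 were detected on all 8 arrays, and 0 of these 6 were called in any of the 7 comparisons, where 1.88% to 12.1% of the tested miRNAs were called. At these shares a count of 0 of 6 is not a result about the neighbours. They were hsa-miR-100-5p and hsa-miR-125b-5p (with MIRLET7A2 or MIRLET7C in their clusters), hsa-miR-99a-5p (MIRLET7C), hsa-miR-99b-5p and hsa-miR-125a-5p (MIRLET7E), and hsa-miR-4763-3p (MIRLET7A3 and MIRLET7B). The scaled signal of hsa-miR-100-5p was 2983 and 4054 in DMSO, 3120 and 4217 in luteolin, 3176 and 3373 in gefitinib, and 3255 and 3317 in luteolin plus gefitinib, with replicate 2 above replicate 1 in DMSO and in luteolin, as in let-7. The signal of hsa-miR-4763-3p was 30.5 and 32.3 in DMSO, 40.3 and 35.6 in luteolin, 41.7 and 41.7 in gefitinib, and 43.4 and 47.9 in luteolin plus gefitinib. It lay above DMSO on all 6 drug arrays, with log2 differences of 0.27 ± 0.14 (SE, adjusted p = 0.660, limma), 0.41 ± 0.14 (adjusted p = 0.133) and 0.54 ± 0.14 (adjusted p = 0.0647). The signal of hsa-miR-125a-5p was 109 and 144 in DMSO and lay below both on all 4 arrays with luteolin (89.9 and 106 alone, 95.4 and 103 with gefitinib). That of hsa-miR-99b-5p was 111 and 126 in DMSO and lay below both with gefitinib (98.2 and 102). In each comparison with DMSO 2 of the 6 neighbours thus did not overlap, 1 above and 1 below, where 26.9% (luteolin), 57.5% (gefitinib) and 52.9% (both drugs) of the tested miRNAs did not. The correlation of hsa-miR-4763-3p with the mean of the 9 members over the 8 arrays was 0.113, against 0.879 for hsa-miR-125b-5p, 0.862 for hsa-miR-100-5p, 0.79 for hsa-miR-99a-5p, 0.44 for hsa-miR-99b-5p and 0.408 for hsa-miR-125a-5p.

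The miRNAs most like the family were looked for among the 350 others that were detected on all 8 arrays and were neither members, passenger arms, neighbours in a cluster nor miRNAs with the same seed, by Pearson's r with the mean log2 signal of the 9 members (n = 8). They were hsa-miR-26b-5p (r = 0.975), hsa-miR-151a-5p (0.959), hsa-miR-4324 (0.958), hsa-miR-30c-5p (0.944) and hsa-miR-23a-3p (0.944). The scaled signal of hsa-miR-26b-5p was 118 and 186 in DMSO, 121 and 222 in luteolin, 172 and 153 in gefitinib, and 149 and 168 in luteolin plus gefitinib. As in most let-7 members, replicate 2 was higher than replicate 1 in DMSO and luteolin and lower in gefitinib. None of these 5 was called in a comparison with DMSO, with log2 differences between -0.06 and 0.16. The likeness describes a pattern in which replicates of DMSO and luteolin differ, and the arrays share 1 slide.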

How the data were processed

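RNA was hybridised to 8 Agilent miRNA arrays of 1 colour, all on 1 slide, with 2 per treatment as the labels give it. The deposited scanner files hold linear signal intensity that the authors extracted with Agilent Feature Extraction 10.7.3.1 (header value) at default settings, after background subtraction, and arrays were not normalized to each other. The array design names the build hg19. A total signal per miRNA sums its probes, and undetected miRNAs are set to 0.1. These totals were scaled to each array's 75th percentile over 365 miRNAs detected on all 8 arrays, and taken as log2 after values under 0.609 were set to it. This floor is the median of the lowest detected signals of the 8 arrays. The 480 miRNAs that were detected in each replicate of some treatment were fitted with limma 3.58.1 in R 4.3.3 (lmFit and eBayes, 4 residual degrees of freedom, a mean per group), with two-sided p-values adjusted over all 480. Intervals are at 95%. Depth is not defined for arrays, and 2 arrays per group limit the precision. An exact permutation test of 2 against 2 cannot go below p = 0.333, so none was used.

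Names came from the scanner files, and sequences and loci from RefSeq (GRCh38.p14), matched by name. All 9 members, the passenger arms and cluster neighbours were named. The 5 most similar miRNAs were those with the highest r. The members and lists were chosen with earlier results of these data known. Alternatives changed the scaling, spot summary, background correction, filter, floor, test, replicate block and arrays. The fit was tested on simulated data. Tables were made with Python 3.11.15, numpy 2.4.6 and pandas 2.3.3.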

Additional observations from a re-analysis of the deposited data

Results flagged for a closer look

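The interaction of the passenger arm hsa-let-7e-3p, which sets the effect of both drugs against the sum of the single effects, had a log2 value of 1.89, which the fit listed as different from 0, and no p-value is given for it. The arm was not detected on any of the 6 drug arrays, so all 3 drug groups were set to the same floor, and the value then equals the distance of DMSO from that floor by construction. It shows nothing about the joint effect of the drugs. Of the 9 guide arms, 0 were called in the interaction, where 3.33% of the tested miRNAs were.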

How the results depend on the processing

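No guide arm was called in any of the 7 comparisons under the alternatives run, with 1 exception: with normexp background correction 1 member, hsa-let-7b-5p, was called with luteolin plus gefitinib against DMSO (log2 fold change 0.52, adjusted p = 0.0268, limma). Over all alternatives, 184 of 1485 values of single members changed sign, and the lowest adjusted p apart from this call was 0.078. The median log2 fold change of the 9 members moved with the scaling. With no scaling it was 0.41 for gefitinib against DMSO, -0.26 for both drugs against gefitinib and -0.51 for the interaction. With spike-in scaling it was 0.55 for gefitinib against DMSO and -0.54 for the interaction. These scalings shift all miRNAs of an array alike, so they cannot move the members against the rest. Quantile normalization can, and gave 0.11 against -0.09 for the 365 miRNAs with gefitinib.

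Leaving out 1 array at a time gave medians of -0.23 to 0.47 for luteolin against DMSO, -0.22 to 0.27 for gefitinib against DMSO, -0.22 to 0.44 for both drugs against DMSO, -0.35 to 0.35 for both drugs against luteolin, -0.02 to 0.18 for both drugs against gefitinib, -0.43 to 0.32 for gefitinib against luteolin and -0.34 to 0.31 for the interaction. The 3 medians against DMSO turned negative without replicate 1 of DMSO, and that of luteolin also without replicate 2 of luteolin. The contrasts with luteolin turned positive without replicate 2 of luteolin, as did the interaction. By the rule that all correlations must exceed 0.1 for a block, the main fit did not pair the arrays by replicate number. The replicate differences of the 365 miRNAs correlated at 0.908 between DMSO and luteolin, and at 0.409 and 0.461 between these and both drugs. Those of gefitinib correlated at -0.135 with DMSO, -0.093 with luteolin and 0.065 with both drugs. The difference between replicates was thus largely shared by DMSO and luteolin, and the fit without a block counts it as spread in that comparison. With the replicate block, 0 members were called in each comparison. A fit with the mean of both gefitinib arrays entered once (chosen after seeing the data) leaves 1 sample in that group. The other groups then give the spread, so no count is read from it. Against DMSO, the calls of hsa-let-7a-3p held in 13 and 20 of 23 alternatives with luteolin and gefitinib. Scaling to the 75th percentile over all miRNAs was not run, because on several arrays it falls on undetected miRNAs. The members' intervals against DMSO reached up to 2.01-fold, so changes inside them could not be told from no change.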
